A study of Mus musculus with 3 samples.

Results

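Chromatin accessibility was examined at 10 genes that mark the epithelial cells of the pancreatic ducts, namely Krt19, Krt7, Krt8, Krt18, Sox9, Cftr, Spp1, Onecut1, Muc1 and Cldn4. They were chosen by name, with no measured value in the rule, and are 10 of 22219 protein-coding genes with an annotated coding start. Every ATAC-seq peak overlapping the body of such a gene or the 20 kb on each side of it was taken, which gave 163 of 362977 peaks. ATAC-seq detects open chromatin as the places where a transposase inserts sequencing adapters. The 3 libraries were made from islet of Langerhans cells of mice of the strain written C5LBl6 in the labels, with 1 library for each group. The groups were wild type (WT), Taf4 KO 1 week and Taf4 KO 5 weeks after inactivation. They are called week 1 and week 5 here. The labels give genotype and time, and no age.

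In the study's design, floxed Taf4 alleles were deleted in adult animals by tamoxifen injection, through a Cre-ERT2 recombinase under the Ins1 promoter. The WT controls described in the study carried the same Ins1::Cre-ERT2 transgene with intact Taf4 alleles and also received tamoxifen. The driver is active in beta cells, so by design other cells of the Taf4 KO animals, duct cells included, kept the gene. How many animals each library pooled is not given in the sources used here. Taf4 encodes a subunit of TFIID, the general transcription factor that recognises core promoters. The islets were dissociated with Accutase before the assay, and such a preparation can hold other cell types, including duct cells. In a bulk library of this kind, fewer cells of a type and less accessibility per cell cannot be told apart. Nor can a peak at a duct gene be assigned to duct cells rather than to the islet cells themselves. As each group is 1 library, there was no replicate, no test between groups was possible, and genotype, time and library cannot be told apart.

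There were 60898 WT peaks, 150354 at week 1 and 151725 at week 5. The lists hold no read totals. A background read level was estimated from the fold and p-value of the peaks, as percentile 1 over the peaks of a list. It was 3.66 reads in WT, 1.76 times that at week 1 and 2.57 times that at week 5. The estimate is approximate, as the caller averages fold and p-value along a peak. The median -log10 q of a peak was 3.71 in the WT list, 2.08 at week 1 and 2.38 at week 5. Peak strength is therefore given mainly as the percentile of a peak's -log10 q within its own list. The longer Taf4 KO lists contain more weak peaks, and in the regions found in all 3 lists across the genome the percentile was above its WT value for 80.2% at week 1 and 90.0% at week 5. All 10 beta cell markers examined had a promoter peak in each list. The promoter of Taf4a, as the targeted gene is named in the annotation, was also called in each list, with a fold of 3.28 in WT, 2.17 at week 1 and 2.94 at week 5, which does not check the deletion.

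Duct cells line the tubes that carry digestive enzymes out of the pancreas and add bicarbonate-rich fluid on the way. As a simple epithelium they build their intermediate filaments from Krt8 paired with Krt18 or Krt19, together with Krt7. Sox9 and Onecut1 (also called Hnf6) are transcription factors of pancreatic progenitors that stay active in ducts, Cftr is the apical chloride and bicarbonate channel, Spp1 encodes the secreted protein osteopontin, Muc1 is an apical mucin, and Cldn4 is a tight junction protein.

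Promoter peaks were called at 6 of the 10 duct genes in WT, at 5 at week 1 and at 8 at week 5. A promoter peak here is a peak that overlaps, by at least 1 bp, the 1000 bp before or the first 100 bp after any coding start of the gene. Coding start means the annotated start of a protein-coding transcript, not of the coding sequence. Over all protein-coding genes the shares were 59.1% in WT, 56.1% at week 1 and 65.8% at week 5, so the duct genes as a group lay near the background. Krt7, Krt8 and Muc1 were called in all 3 lists, and Krt19 in none. Krt18, Sox9 and Cldn4 had a promoter peak in WT and none at week 1, that is 3 of 6, where 14.5% of all WT promoters lacked a peak at week 1. Each of these 3 was called again in the 5 week library, and none of the 6 WT calls was absent there, against 1.89% of all WT promoters. Cftr and Spp1 had a promoter peak at week 1 and not in WT, or 2 of 4, where the share over all genes without a WT peak was 13.4%. Cftr and Onecut1 were the 2 of 4 that had one at week 5 and not in WT, beside 18.9% of all such genes. With so few members, a single gene moves each of these shares by a large step.

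**Figure D1:**
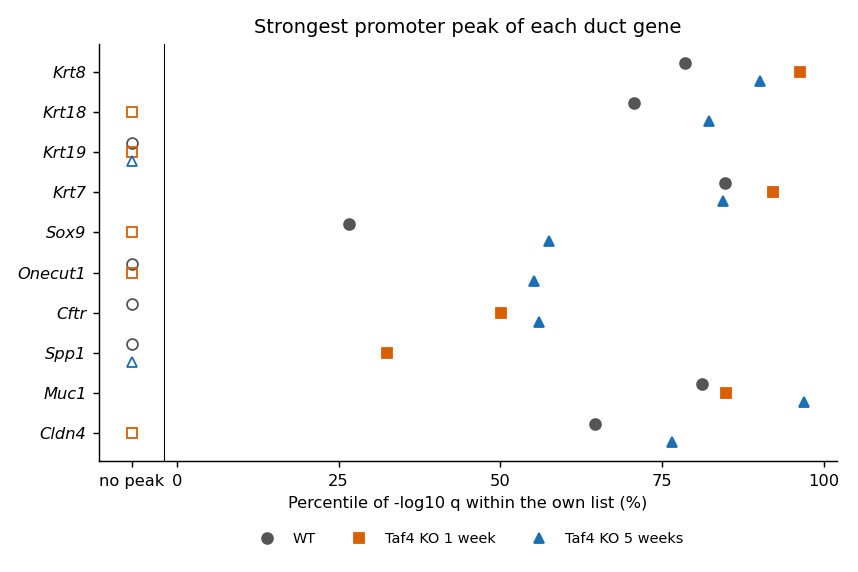
Percentile of -log10 q, within the own list, of the strongest promoter peak of each of the 10 duct genes (horizontal axis, in percent) in the WT, Taf4 KO 1 week and Taf4 KO 5 weeks libraries (filled symbols, 1 library each), with open symbols at the left where the promoter had no peak. Krt7, Krt8 and Muc1 have a filled symbol for every library and lie between 78.5% and 96.9%, Krt19 has none, and the promoter peaks found in a Taf4 KO list but not in WT lie between 32.5% and 55.9%.

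The calls of strong promoters did not depend on the weak end of the lists, and the others did. When only peaks with -log10 q of 3 or more were used, promoter peaks remained at 5 duct genes in WT, 3 at week 1 and 5 at week 5, where the shares of all genes were 53.9%, 45.0% and 59.1%. With a minimum of 5 the numbers of duct genes were again 5, 3 and 5, and those of all genes were 48.7%, 33.5% and 54.5%. With each list limited to the number of peaks of the WT list, 6, 3 and 5 duct genes were called, beside 59.1%, 48.9% and 59.1% of all genes. With the lists rescaled to the WT background the result was also 6, 3 and 5, beside 59.0%, 47.3% and 56.1%. The 3 genes called at week 1 under each of these 4 settings were Krt7, Krt8 and Muc1. Krt18 and Cldn4 were called in WT and at week 5, and not at week 1, under all 4. The calls of Cftr and Spp1 at week 1 and of Cftr, Sox9 and Onecut1 at week 5 were made under none of them, and the WT call of Sox9 under 2. With a wider promoter stretch, from 2000 bp upstream to 500 bp downstream, 7 duct genes were called in WT, 7 at week 1 and 9 at week 5, beside 62.2%, 60.5% and 69.6% of all genes. Cldn4 then had a call at week 1 and Spp1 had calls in WT and at week 5, so that neither differed between the lists, and Onecut1 was called at week 1.

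Krt8 and Krt18, the obligate partners of the filament of simple epithelia, lie beside each other on chromosome 15 and differed in the 1 week library. At Krt8 (ENSMUSG00000049382, minus strand, start at 101834773) the promoter peak covered chr15:101833298-101835061 in WT, with a fold of 3.12 over the local background. At week 1 it covered 439 bp, chr15:101834648-101835086, with a fold of 4.53. At week 5 it covered 2781 bp, chr15:101833304-101836084, with a fold of 3.14. The percentile of the Krt8 peak was 78.5% in WT, 96.3% at week 1 and 90.2% at week 5. The 1 week peak ran from -313 to 125 bp relative to the start, whereas the WT peak reached to 1475 bp into the gene. The Krt8 promoter peak was thus present in all 3 libraries and differed in width. Fold and -log10 q are averages along a peak, so those of a narrow and a wide peak are not directly comparable.

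At Krt18 (ENSMUSG00000023043, plus strand, start at 101858647) the WT promoter peak covered 1419 bp, chr15:101858419-101859837, with a fold of 3.55 and a percentile of 70.6%. The 5 week peak covered chr15:101858368-101860042, 1675 bp, with a fold of 3.24 and a percentile of 82.2%. In the 1 week list no peak lay in this stretch, and the nearest peak edge was 9853 bp from the start. That nearest peak belongs to a broad region between the start sites of Krt8 and Krt18, which was open in all 3 libraries. The region was 2308 bp wide in WT, 1571 bp at week 1 and 2215 bp at week 5, with folds of 3.58, 3.35 and 3.60. It holds the strongest distal peak of the Krt18 window in every list, and its percentile was 83.6% in WT, 85.8% at week 1 and 91.8% at week 5. At week 1 this shared region thus had a called peak and the Krt18 promoter had none.

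The promoters of this partner pair are shown because only Krt8 kept its call at week 1, and those of Sox9 and Muc1 because the former had no peak at week 1 and the latter was called everywhere. Each runs, 5′ to 3′ on the strand of the gene, from 250 bp upstream to the first 30 bases of the annotated transcript in the mm9 genome, at chr15:101834744-101835023 (minus strand), chr15:101858397-101858676, chr11:112643288-112643567 and chr3:89032729-89033008 (plus strand). Capitals mark letter matches to TATAAA (the TATA box) on the sense strand and, on either strand, to CCAAT (the CCAAT box), GGGCGG (a GC box), TGANTCA (the AP-1 motif), ATTGTT (for SOX factors), ATTGAT (for ONECUT factors) and TGTTTAC (for forkhead factors).
Krt8 promoter: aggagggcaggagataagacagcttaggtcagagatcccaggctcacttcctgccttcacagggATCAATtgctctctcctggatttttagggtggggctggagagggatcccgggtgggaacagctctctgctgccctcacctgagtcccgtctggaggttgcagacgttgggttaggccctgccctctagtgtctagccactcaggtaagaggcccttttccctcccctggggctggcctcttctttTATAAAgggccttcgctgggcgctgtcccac
Krt18 promoter: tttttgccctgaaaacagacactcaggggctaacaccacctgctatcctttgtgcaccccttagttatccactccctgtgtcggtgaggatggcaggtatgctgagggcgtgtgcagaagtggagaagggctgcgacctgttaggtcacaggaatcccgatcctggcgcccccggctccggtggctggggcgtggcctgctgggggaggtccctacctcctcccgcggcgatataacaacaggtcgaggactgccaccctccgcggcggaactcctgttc
Sox9 promoter: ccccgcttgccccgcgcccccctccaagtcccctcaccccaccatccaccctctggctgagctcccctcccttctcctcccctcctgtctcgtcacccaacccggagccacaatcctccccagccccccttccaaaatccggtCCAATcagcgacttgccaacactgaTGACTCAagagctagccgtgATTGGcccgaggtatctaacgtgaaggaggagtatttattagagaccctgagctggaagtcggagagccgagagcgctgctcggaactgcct
Muc1 promoter: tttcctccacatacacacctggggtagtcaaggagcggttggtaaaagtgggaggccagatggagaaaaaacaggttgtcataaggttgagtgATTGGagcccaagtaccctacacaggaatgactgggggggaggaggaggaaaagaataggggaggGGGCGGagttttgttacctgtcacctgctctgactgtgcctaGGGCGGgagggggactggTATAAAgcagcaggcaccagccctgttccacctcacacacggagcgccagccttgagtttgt

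A match in these letters is a description and not a bound site. The Muc1 letters shown lay outside its promoter peaks. These ended at -564 bp in WT, -492 bp at week 1 and -550 bp at week 5. In the stretch from 250 bp upstream to 50 bp downstream of a start, CCAAT was found in 37.7% of all protein-coding promoters, GGGCGG in 44.8%, TGANTCA in 6.77%, ATTGTT in 9.86%, ATTGAT in 7.12% and TGTTTAC in 3.03%. TATAAA stood between 50 and 20 bp upstream of a start in 3.43% of genes, and anywhere on the sense strand of that stretch in 9.01%. Muc1 was the only duct gene with TATAAA between 50 and 20 bp upstream, at -32. In Krt8 the same letters begin at -1, directly on the annotated start, a position searched only after the sequence had been seen. The Krt18 promoter holds none of the 7 motifs. Sox9 has CCAAT at -107 and, on the other strand, at -62, with TGACTCA at -82 between them. Cldn4 was the only other member with TGANTCA, in 2 places. The GC content of the stretch ranged over the 10 genes from 45.7% at Spp1 to 73.0% at Onecut1, with a median over all promoters of 55.7%. Cftr, at 71.3%, holds GGGCGG in 6 places, and its promoter and that of Onecut1 have 31 and 38 CpG dinucleotides, where the median promoter has 12.

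Krt19 (ENSMUSG00000020911, chromosome 11, minus strand), a keratin widely used to stain pancreatic ducts, had no promoter peak in any library or setting. The nearest peak edge was 4711 bp from its coding start in WT, 4858 bp at week 1 and 4235 bp at week 5. An upstream region between genes, centred at -5024 bp, was called in all 3 libraries. It lay at chr11:100012145-100012751 in WT, with a fold of 4.31. Its 1 week peak was chr11:100012292-100012625 with a fold of 3.74, and its 5 week peak chr11:100011871-100012752 with a fold of 3.71. In percentiles this region stood at 78.8% in WT, 90.8% at week 1 and 88.1% at week 5. A further peak, downstream of the gene and starting 17537 bp from the coding start in WT, 538 bp wide there and 746 bp wide at week 5, had no counterpart at week 1. At week 5, 2 weaker peaks were added, at -10095 bp and over the last part of the gene, the latter with a fold of 1.93.

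Krt7 (ENSMUSG00000023039, chromosome 15, plus strand) had a promoter peak in each library. In WT it covered chr15:101242245-101243292, 1048 bp, with a fold of 3.42. At week 1 it was narrower, chr15:101242685-101243041 or 357 bp, with a fold of 3.94. At week 5 a peak of 3809 bp, chr15:101242048-101245856, with a fold of 2.68 ran over the promoter and 3023 bp into the gene. In WT and at week 1 a separate peak lay in that downstream part, with folds of 1.84 and 2.56. The percentile of the promoter peak was 84.8% in WT, 92.1% at week 1 and 84.5% at week 5. As the 3 peaks differ in width, their folds and percentiles are again not directly comparable. Introns of Krt7 held a pair of regions open in all libraries, centred 12593 and 14145 bp from the start. The fold of the former was 2.90 in WT, 3.68 at week 1 and 4.58 at week 5, where its -log10 q of 26.9 placed it at 98.6% of the list. The folds of the latter were 3.67, 2.90 and 2.85. In percentiles the latter stood at 85.6% in WT, 78.5% at week 1 and 81.6% at week 5.

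Sox9 (ENSMUSG00000000567, chromosome 11, plus strand) was the only member with no peak at all in its window in a library. In WT there were 2 peaks, at chr11:112642455-112644296 over the start and at chr11:112645395-112646500 inside the gene, where a further coding start is annotated. Their folds were 2.60 and 2.48, and their percentiles 26.7% and 14.7%, so both were weak peaks of the WT list. At week 5, 2 peaks lay at the same places, chr11:112643407-112644340 and chr11:112646135-112646633, with folds of 2.36 and 2.35. Both stood at 57.5% of the 5 week list. No distal peak of Sox9 was called within 20 kb in any library.

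Onecut1 (ENSMUSG00000043013, chromosome 9, plus strand) had a promoter peak at week 5, chr9:74709491-74710255, with a fold of 2.18 and a percentile of 55.2%. In WT the nearest peak edge was 5035 bp from the start, and at week 1 1295 bp. Its strongest distal region, centred 47491 bp downstream of the start and beyond the gene end, was open in all libraries, with folds of 4.23 in WT, 4.18 at week 1 and 3.06 at week 5. This region covered 611 bp in WT, 1224 bp at week 1 and 615 bp at week 5. An intronic region centred at 5438 bp was also called everywhere, at percentiles of 6.61% in WT, 42.2% at week 1 and 55.4% at week 5. The strong accessible site of the Onecut1 window was thus distal in all 3 libraries.

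Cftr (ENSMUSG00000041301, chromosome 6, plus strand) showed the largest difference in peak number of the 10 genes. Its window of 192082 bp was the widest of the 10, the next being 67864 bp at Onecut1. The Cftr window held 2 peaks in WT, 20 at week 1 and 16 at week 5. At week 1 a promoter peak lay at chr6:18119478-18120642 with a fold of 2.44, ending 45 bp before the start. At week 5 the promoter peak was chr6:18119607-18120902 with a fold of 2.35, covering the start. Both were of middle rank, at 50.1% and 55.9% of their lists. The 2 WT peaks lay in introns, 57894 and 79344 bp from the start, and both had a counterpart in each Taf4 KO list. The stronger of them had a fold of 3.86 in WT, 4.31 at week 1 and 3.79 at week 5, and a percentile of 61.0%, 96.8% and 87.0%. Most other peaks of the window were weak: the median fold of its peaks was 2.38 at week 1 and 2.19 at week 5, and the median -log10 q was 2.06 and 2.09. Of the 27 separate regions of the Cftr window, 11 were found at week 1 only, 7 at week 5 only and 7 in both Taf4 KO lists.

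Spp1 (ENSMUSG00000029304, chromosome 5, plus strand) lacked a promoter peak in WT. At week 1, 2 weak peaks met the promoter rule, chr5:104863561-104864195 over the start with a fold of 2.16 and chr5:104865272-104866298 at a later coding start with a fold of 2.32. At week 5 a peak with a fold of 2.18 lay within the gene, 292 bp from the nearest coding start and outside the promoter stretch. The strongest distal region of Spp1, between genes and centred 11259 bp downstream of the start, was narrow and open in all libraries. Its fold was 4.42 in WT, 5.38 at week 1 and 4.74 at week 5, and its percentile 70.6%, 98.6% and 94.9%. A region centred at -2049 bp was likewise found in each list, with folds of 2.95, 2.71 and 3.23. The last shared peak of the window belongs to the promoter of the neighbour Pkd2.

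Muc1 (ENSMUSG00000042784, chromosome 3, plus strand) had a promoter peak in all libraries, which did not cover its start. The peak lay at chr3:89031240-89032415 in WT, from -1739 to -564 bp, with a fold of 3.74. At week 1 it was chr3:89031200-89032487 with a fold of 3.24, and at week 5 chr3:89031166-89032429 with a fold of 4.48. Percentiles were 81.2% in WT, 84.9% at week 1 and 96.9% at week 5. A coding start of the neighbour Mtx1 has its promoter stretch in the same peak, so the peak cannot be assigned to Muc1 alone. Other peaks of this gene-dense window lay at the promoters of Mtx1 and Thbs3, of Trim46 and of Krtcap2. The width of the Muc1 promoter peak hardly moved, at 1176, 1288 and 1264 bp.

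Cldn4 (ENSMUSG00000047501, chromosome 5, minus strand) had a promoter peak in WT, chr5:135421494-135423125, with a fold of 2.61 and a percentile of 64.6%. At week 5 the peak was chr5:135421462-135422938, with a fold of 2.55 and a percentile of 76.6%. The 1 week peak over the same gene, chr5:135421545-135422556, had a fold of 2.62 but began 248 bp inside the gene, just outside the promoter stretch. A peak of similar fold was thus present at Cldn4 at week 1, with its edge outside the stretch. A region centred at -19233 bp had a fold of 4.53 in WT, 2.43 at week 1 and 4.22 at week 5, and a percentile of 89.4%, 48.0% and 92.9%. Another, 4928 bp from the start in an exon of the neighbour Wbscr27, had folds of 3.47, 2.85 and 3.68. The WT and week 5 lists each had further upstream peaks, beginning at -5178 and -12729 bp in WT, where the week 1 list had none.

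**Figure D2:**
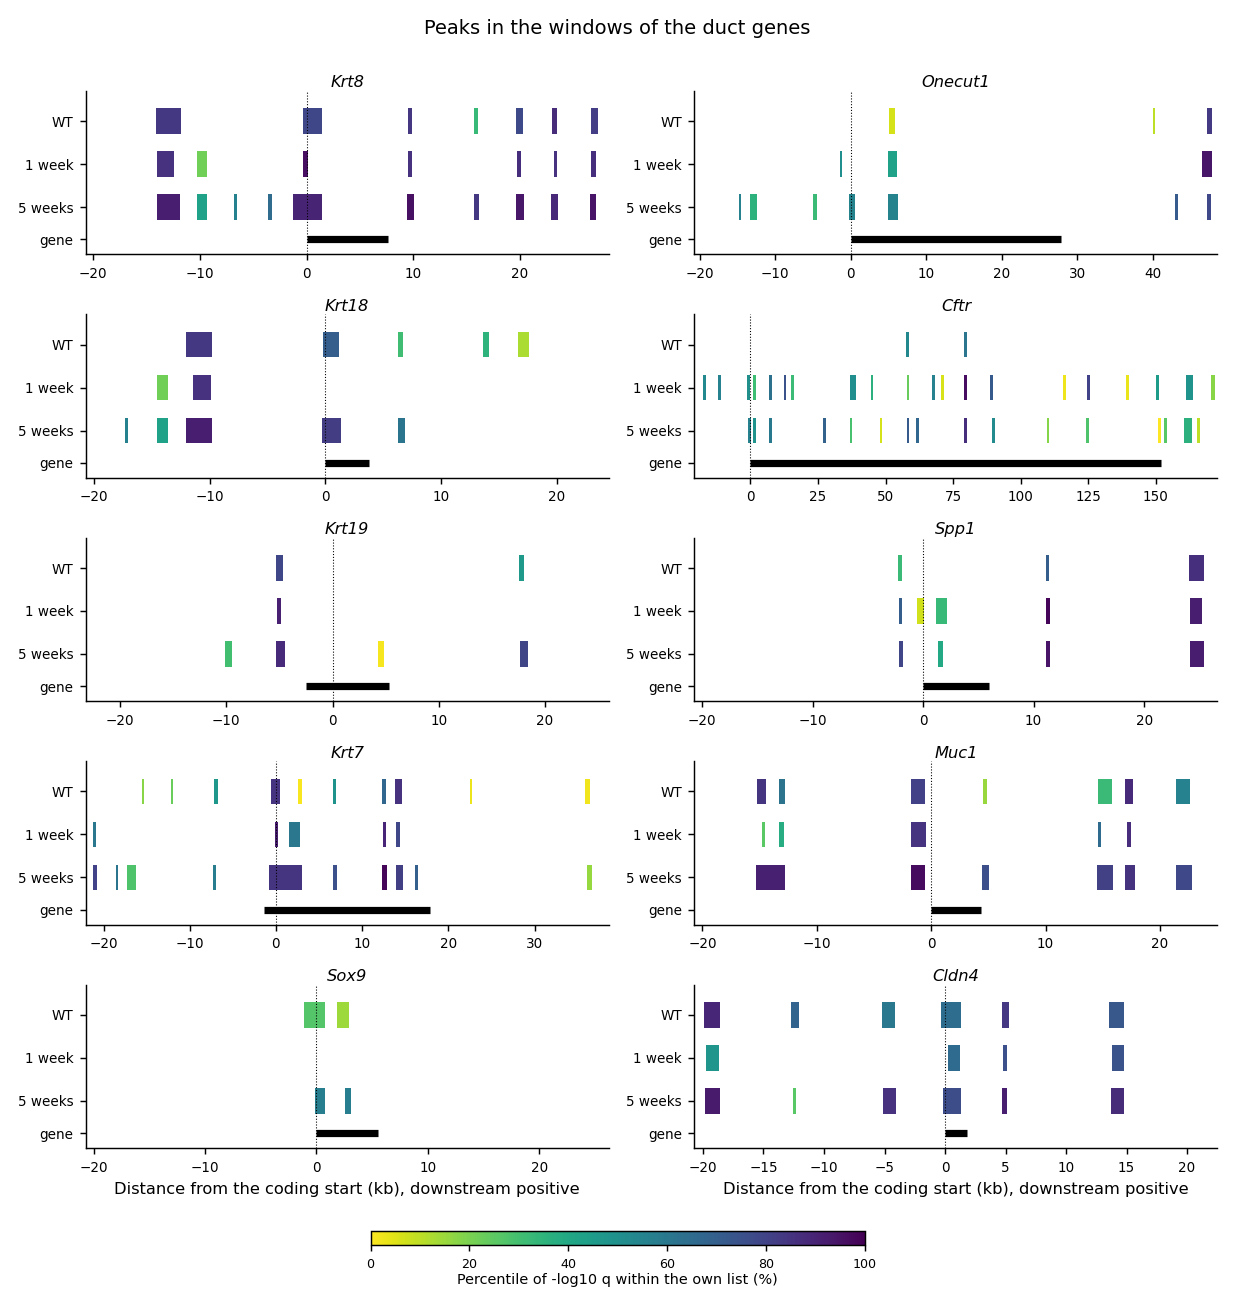
Peaks in the window of each duct gene, as bars against the distance from the coding start (kb, downstream positive), for the WT, 1 week and 5 weeks lists, with the gene body as a black bar and colour for the percentile of -log10 q within the own list (narrow peaks are drawn at a minimum width). The Sox9 window is empty at week 1, the Krt18 start is uncovered at week 1, and the Cftr window holds 2, 20 and 16 peaks.

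Several shared distal regions lay at genes whose promoters were not called in all lists, or held 2 or more motifs. The letters of 4 of them are given as examples, with Krt7 chosen for its 2 motifs. Each shows the central 200 bases of the stretch common to the 3 peaks, on the plus strand of mm9, at chr11:100012358-100012557 and chr15:101256878-101257077, chr6:18199931-18200130 and chr5:104875296-104875495. Capitals mark the same motifs, without TATAAA.
Krt19 upstream: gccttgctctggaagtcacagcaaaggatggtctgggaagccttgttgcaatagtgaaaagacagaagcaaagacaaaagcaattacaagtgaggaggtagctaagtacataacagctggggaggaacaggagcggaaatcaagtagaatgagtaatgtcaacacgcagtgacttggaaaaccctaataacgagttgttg
Krt7 intron: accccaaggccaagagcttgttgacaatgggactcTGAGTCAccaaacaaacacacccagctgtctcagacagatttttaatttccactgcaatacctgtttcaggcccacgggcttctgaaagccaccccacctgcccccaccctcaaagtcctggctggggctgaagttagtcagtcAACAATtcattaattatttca
Cftr intron: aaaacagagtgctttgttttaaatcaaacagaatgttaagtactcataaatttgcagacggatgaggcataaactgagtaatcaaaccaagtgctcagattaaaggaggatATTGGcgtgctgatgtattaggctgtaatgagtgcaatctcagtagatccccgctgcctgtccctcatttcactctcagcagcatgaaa
Spp1 downstream: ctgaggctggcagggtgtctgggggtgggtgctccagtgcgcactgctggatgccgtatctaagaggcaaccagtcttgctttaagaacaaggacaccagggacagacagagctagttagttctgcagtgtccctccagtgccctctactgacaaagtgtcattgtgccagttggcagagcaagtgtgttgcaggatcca

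Among 24807 distal regions shared by the 3 lists across the genome, CCAAT was found in 21.7% of the central 200 bases, GGGCGG in 8.24%, TGANTCA in 9.47%, ATTGTT in 9.40%, ATTGAT in 6.10% and TGTTTAC in 8.14%. The Krt19 and Spp1 regions shown hold none of them. TGANTCA was found in 3 of the 16 shared distal regions of the duct windows, at Krt7, Onecut1 and Cldn4. The SOX motif ATTGTT was present at Krt7 and at a region downstream of Krt8, and the ONECUT motif ATTGAT at the weaker intronic region of Cftr.

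**Figure D3:**
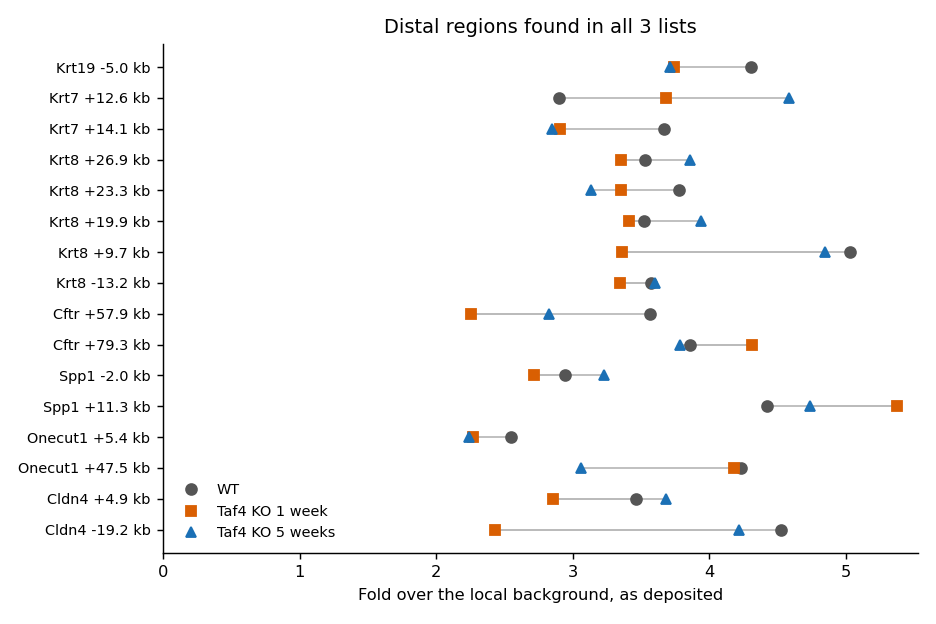
Fold over the local background, as deposited (horizontal axis), of the 16 distal regions of the duct windows found in the WT (circles), 1 week (squares) and 5 weeks (triangles) lists, named by gene and distance from the coding start, with the region between Krt8 and Krt18 shown once under Krt8. The Spp1 region has the highest 1 week fold, 5.38, and the most upstream Cldn4 region has folds of 4.53, 2.43 and 4.22.

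Peaks in the duct gene windows, with those shared by the overlapping Krt8 and Krt18 windows counted once, numbered 46 in WT, 50 at week 1 and 67 at week 5. Over the 619993 bp of the windows this is 7.42, 8.06 and 10.8 peaks per 100 kb, where the windows of all protein-coding genes held 4.0, 5.07 and 6.44. The 1 week total rests on Cftr. Without its window the numbers were 44 in WT, 30 at week 1 and 51 at week 5, so that the 1 week number turned from above to below the WT number. With lists of equal number both Taf4 KO numbers were below WT, at 46 in WT, 27 at week 1 and 39 at week 5, and with rescaled lists they were 45, 24 and 35. For these settings no count over the windows of all genes is given, so a difference particular to duct windows is not shown. At week 1, 6 of 10 duct genes had fewer peaks than in WT and 2 had more, where 43.1% of all genes had fewer and 33.6% more. At week 5, 5 of 10 had more and 1 had fewer, beside 54.0% and 15.1% of all genes. Krt7 had 10 peaks in WT, 5 at week 1 and 10 at week 5, and Krt18 had 5, 2 and 5. Onecut1 had 3 peaks in WT, 3 at week 1 and 7 at week 5.

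Joined over the lists, the peaks formed 86 regions. Of the 44 regions with a WT peak, 25 were found in all 3 lists, 13 in WT and at week 5, 6 in WT only and 0 in WT and at week 1 only. These are 56.8%, 29.5%, 13.6% and 0.0% of the 44, and over the whole genome the shares were 60.6%, 18.9%, 19.0% and 1.53%. A count of 0 among 44 regions allows a share of up to 6.82%, for counting error only. Of the WT peaks in the duct windows, 58.7% were overlapped by a 1 week peak (27 of 46, Wilson 95% interval 44.3% to 71.7%, for counting error only), and 61.9% of all WT peaks were. A 5 week peak overlapped 87.0% of them (40 of 46, interval 74.3% to 93.9%), beside 79.5% of all WT peaks. Both intervals include the share over all peaks. In the other direction, 54.0% of the 50 peaks at week 1 (interval 40.4% to 67.0%) overlapped a WT peak. At week 5, 56.7% of the 67 did (interval 44.8% to 67.9%). Over the whole lists, which also hold peaks outside gene windows, 25.1% and 31.7% did, both below these intervals. No share over the windows of all genes is given, so a trait particular to duct windows is not shown. All 5 regions at promoters of neighbouring genes were found in each list, as were 16 of 70 distal regions and 4 of 11 promoter regions. Of the 70 distal regions, 12 were found at week 1 only and 18 at week 5 only. No share by kind of region over the genome is given, so these counts do not set the kinds apart.

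In 23 regions of the duct windows each list had exactly 1 peak, so that widths and folds can be set side by side, although each fold is an average over its own width. The median width was 662 bp in WT, 462 bp at week 1 and 882 bp at week 5. Peaks were wider than in WT in 7 of 23 regions at week 1 and in 16 of 23 at week 5, and over all 35534 such regions of the genome in 45.6% and 69.6%. The median ratio of the width to that in WT was 0.738 at week 1 and 1.07 at week 5, beside 0.962 and 1.13 over all. Fold was above that in WT in 6 of 23 regions at week 1 and 11 of 23 at week 5, beside 31.1% and 35.6% of all. The median ratio of the fold to WT was 0.921 at week 1 and 0.982 at week 5, against 0.894 and 0.933 over the genome. The percentile was above that of WT in 17 of 23 regions at week 1 and 20 of 23 at week 5. Most shared duct regions thus had a lower width and a lower fold at week 1, as did most such regions of the genome, without a replicate to give the spread.

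At week 1 the change in peak number went along with the base composition of the chromosome region. Cftr, Spp1 and Onecut1 lie in the GC-poorer regions of the set, with a GC content of the 1 Mb around the start of 39.9%, 41.9% and 42.8%. The other 7 genes lie between 45.3% at Sox9 and 48.8% at Cldn4. The 2 genes with more peaks at week 1 than in WT, Cftr and Spp1, are in the GC-poorer group, and all 6 with fewer are in the other. At week 5 the members did not divide in this way. Krt19 and Krt8, of the other group, then also had more peaks than in WT. Over all protein-coding genes, sorted into 5 groups of rising GC content, the ratio of 1 week to WT peaks per window was 5.44, 1.76, 0.992, 0.715 and 0.532. The share of WT promoter peaks absent at week 1 was 2.13%, 5.40%, 8.67%, 17.9% and 29.5% in the same groups. Sox9 belongs to the fourth group, and Krt18 and Cldn4 to the fifth. Krt7, Krt8 and Muc1, which kept their promoter calls at week 1, also belong to the fifth. At week 5 the ratios were 3.93, 2.01, 1.49, 1.25 and 1.14, and the shares of absent promoter peaks lay between 1.13% and 2.58%. The part of GC content and of library depth in the differences at duct genes was not tested.

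**Figure D4:**
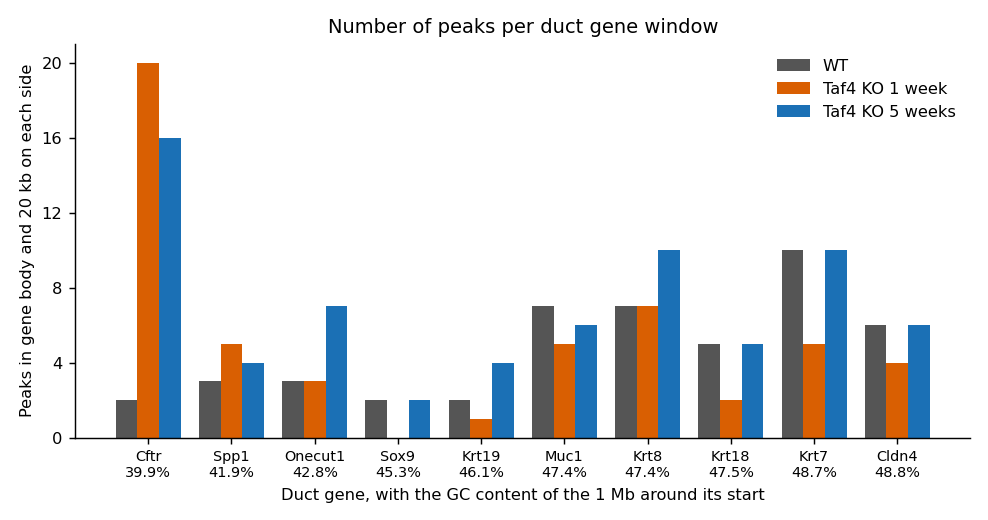
Number of peaks in the gene body and 20 kb on each side (bars from 0) for each duct gene in the WT, Taf4 KO 1 week and Taf4 KO 5 weeks lists, sorted by the GC content of 1 Mb of surrounding sequence, given under each name. Cftr, at 39.9% GC and with the widest window (192082 bp), has 2, 20 and 16 peaks. Krt18, at 47.5%, has 5, 2 and 5, and Krt7, at 48.7%, has 10, 5 and 10.

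Among 24 other duct genes, promoters were called at 18 in WT, 17 at week 1 and 20 at week 5. From a -log10 q of 3 the numbers were 13, 13 and 20, and from 5 they were 9, 9 and 16. In lists of equal number they were 18, 14 and 20, and in rescaled lists 18, 13 and 16. The shares of all genes under these settings are given above. In the whole lists Anxa2, a membrane-binding annexin, and Cldn7, a tight junction claudin, had a WT promoter peak and none at week 1. They are 2 of the 18 WT calls, where 14.5% of all WT promoters lacked a peak at week 1. In lists of equal number 5 of the 18 WT calls were absent at week 1. In rescaled lists 6 were absent at week 1 and 3 at week 5. No share of absent calls over all genes is given for these 2 settings. The WT fold was 2.44 for Anxa2 and 3.24 for Cldn7, and both were called at week 5, with folds of 2.51 and 3.03. Tspan8, a tetraspanin of the cell surface, had no peak in WT and folds of 3.14 at week 1 and 3.06 at week 5. Of the members and these genes together, Krt19, Epcam, Aqp1, Lcn2 and Mmp7 were called in no list. Most other keratin genes, which lie in the same 2 clusters of chromosomes 11 and 15, had no promoter peak: of 42, promoter peaks were found at 3 in WT, 1 at week 1 and 7 at week 5. Krt77 was called in all 3 lists, Krt222 and Krt80 in WT and at week 5, and Krt14, Krt35, Krt4 and Krt71 at week 5.

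Markers of other cell types that islet preparations can hold were counted in the same way. Among 12 acinar genes, promoters were called at 2 in WT, 2 at week 1 and 3 at week 5. Of 6 endothelial genes the numbers were 2, 3 and 5, of 6 fibroblast genes 1, 3 and 4, and of 6 immune genes 0, 1 and 1. The share of all coding genes, given above, was likewise highest at week 5. With the lists rescaled to the WT background the numbers were 2, 1 and 0 for the endothelial genes and 1, 1 and 1 for the fibroblast genes. The part of cell composition in the duct gene calls was not tested.

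**Figure D5:**
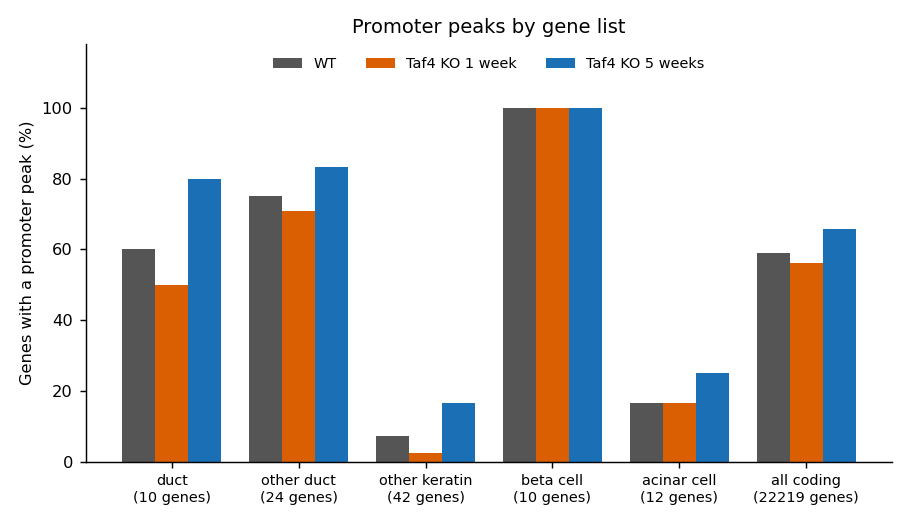
Share of genes with a promoter peak (percent, bars from 0) in the WT, Taf4 KO 1 week and Taf4 KO 5 weeks lists for the 10 duct genes, 24 other duct genes, 42 other keratin genes, 10 beta cell genes, 12 acinar genes and all 22219 coding genes. Of the duct genes 6, 5 and 8 of 10 are called, all coding genes stand at 59.1%, 56.1% and 65.8%, and other keratin genes at 7.14%, 2.38% and 16.7%.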

How the data were processed

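ATAC-seq was performed on dissociated islet cells, with 1 library per group. Per the labels and the study's methods, the authors mapped reads to mm9 with Bowtie 1.0.0, keeping unique alignments, and called broad peaks for each library with MACS2 2.1.1 (versions from the submitters' processing notes). A control library, duplicate removal and a shift of reads to the insertion site are not given in the sources used here. Each deposited list holds where a peak lies, its fold (a ratio of pileup to local background) and its -log10 p and -log10 q, which the caller averages along the peak. The deposited whole-number score, 10 times the -log10 q, was not used.

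Peaks on chromosomes 1 to 19, X and Y were kept, which left out 2 per list. Genes came from the GENCODE annotation of NCBIM37 (mm9), and sequences from that genome. Overlaps, ranks and motifs were computed with Python 3.11.15, numpy 2.4.6, pandas 2.3.3 and pysam 0.24.0, and the overlap code was tested on simulated data. The background floor of a list is the lowest percentile (1) of the read background that the fold and -log10 p of a peak imply. As both are averaged along a peak, the floor and the rescaling are approximate. The precision of these calls cannot be given, since the number of reads is unknown. Alternatives were thresholds on -log10 q of 3 and 5, lists of equal number, lists rescaled to the WT floor (-log10 p of at least 3.14 after rescaling), a wider promoter stretch, other flanks and a reciprocal overlap of 50%. All 10 members are named, with neighbours whose promoter lies in a window and other duct genes whose call differed between lists, except where an item is not reported here. Distal peaks were chosen as the strongest of each member in each list, and some regions shared by all lists were added. The strongest distal peaks of Krt8 and Muc1 are not described one by one. The other keratins were named after their values were seen. The members and lists were chosen with earlier results of these data known.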

Additional observations from a re-analysis of the deposited data

Results flagged for a closer look

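The number of peaks in the Krt19 window moved in opposite directions in the Taf4 KO lists: it was -1 relative to WT at week 1 and 2 above WT at week 5, from 2 peaks in WT. It is given here because the sign differed between the time points. With 1 library per group the difference was not tested.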

How the results depend on the processing

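Promoter calls at duct genes, 5 at week 1 and 8 at week 5 in the whole lists, numbered 3 and 5 under each of the 4 stricter settings (-log10 q from 3 or from 5, lists of equal number, rescaled lists), and 7 and 9, with 7 in WT, with the wider promoter stretch. Peaks in the duct windows numbered 30 in WT, 21 at week 1 and 40 at week 5 from a -log10 q of 3, and 24, 15 and 32 from 5. In lists of equal number they were 46 in WT, 27 at week 1 and 39 at week 5, and in rescaled lists 45, 24 and 35, so that the week 5 number also turned below WT. With 10 kb flanks the WT number was 27, and with 50 kb flanks it was 74, with 110 at week 5. The share of WT peaks overlapped at week 5 was 95.8% from a -log10 q of 5, 73.9% in lists of equal number and 71.1% in rescaled lists. With a reciprocal overlap of 50% it was 43.5% at week 1 and 69.6% at week 5. Leaving out Cftr, chosen after seeing the data, gave 30 peaks at week 1. Under every stricter setting the 1 week number lay below the WT number, the reverse of the whole lists. Fewer peaks enter the stricter lists by construction, and other causes were not tested. No count over the windows of all genes is given for the stricter settings. Leaving out a replicate was not possible with 1 library per group, and no paired analysis was possible because the groups share no replicates. Read depth is unknown, so an uncalled promoter was not detectable at this depth, which does not show that it was closed.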
